A study of Rattus norvegicus with 9 samples.

Results

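Enzymes that remove reactive oxygen species and handle glutathione form the set of genes described here. They are the glutathione S-transferases, glutathione peroxidases, peroxiredoxins, superoxide dismutases, thioredoxins with their reductases, the enzymes that make and recycle glutathione, catalase, the heme oxygenases, Nqo1, and the regulatory pair Nfe2l2 and Keap1. Members were chosen by gene name, with earlier results of these data known, which gave 54 of the 30562 genes in the count table. Of the 54, 47 had at least 1 count and 22 had enough counts to be tested. The 7 listed at 0 in every library were Gpx5, Gpx6, Gsta2, Gsta5, Gstm3, Gstp3 and Gstt4.

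Superoxide dismutases turn superoxide into hydrogen peroxide, and catalase, peroxiredoxins and glutathione peroxidases then remove the peroxide; peroxiredoxins mostly draw electrons from thioredoxin, and glutathione peroxidases from glutathione. Glutathione S-transferases couple glutathione to electrophiles. The transcription factor NRF2, encoded by Nfe2l2, switches on many of these genes when oxidants release it from its inhibitor KEAP1. In brain, astrocytes make much of the glutathione, and GPX4 protects membrane lipids from peroxidation.

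Poly(A) RNA of the hippocampus of male Sprague-Dawley rats, 6 to 8 weeks old on arrival, was sequenced in 3 groups of 3 libraries. ChryM rats received chrysophanol, a plant anthraquinone, by oral gavage for 14 days; the dose is not stated in the labels, and that these rats had first been through the diabetes and stress protocol follows only from the series title. Model rats were fed a high-fat diet for 4 weeks, were injected with 50 mg/kg of streptozotocin, which destroys pancreatic beta cells, and were then exposed to unpredictable mild stress for 5 weeks. Ctrl rats were normal controls, and the labels do not say whether Model and Ctrl rats were gavaged with vehicle. The labels do not tie libraries to animals, and the p-values therefore rest on the scatter among libraries, part or all of which may be technical.

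Libraries held 631119 to 866048 counts, with 13343 to 14256 genes detected in each, and the median tested gene had 24 counts, so that weakly expressed enzymes could not be compared. CPM (counts per 1000000) are scaled by the trimmed mean of M-values, given with the SD of 3 libraries, and sums over genes are CPM of the library total. Markers of hippocampal pyramidal and granule neurons (6 genes, 4 tested) summed to 320 to 366 CPM in ChryM, 236 to 269 CPM in Model and 351 to 411 CPM in Ctrl; 3 were lower in Model than in Ctrl (median log2 fold change of the 4 -0.58), 2 were higher in ChryM than in Model (median 0.54), 1 was lower in ChryM than in Ctrl, and Spink8 was listed at 0 in every library. Within that list Wfs1 averaged 86.7 ± 12.7 CPM in ChryM, 25.7 ± 4.17 CPM in Model and 74.9 ± 16.9 CPM in Ctrl, and Neurod6 80.3 ± 5.96 CPM in ChryM, 89.2 ± 12.0 CPM in Model and 79.0 ± 12.3 CPM in Ctrl. Transcripts of other tissues and cell types also differed between groups. Summed choroid plexus markers (6 genes, 3 tested, all 3 lower in ChryM and in Model than in Ctrl) ranged from 75.1 to 86.9 CPM in ChryM, from 26.9 to 44.0 CPM in Model and from 1727 to 1791 CPM in Ctrl, and the defining marker Kl was at 0 in ChryM and Model. Erythrocyte markers (4 of 6 in the table, 2 tested, both lower in ChryM and in Model than in Ctrl) summed to 99.0 to 107 CPM in ChryM, 65.1 to 84.0 CPM in Model and 334 to 359 CPM in Ctrl, with Alas2 at 0 in Model. Meningeal and fibroblast markers (5 genes, 1 tested, lower in ChryM and in Model than in Ctrl) summed to 20.8 to 24.2 CPM in ChryM, 17.4 to 24.6 CPM in Model and 141 to 157 CPM in Ctrl. Endothelial markers (4 of 5 in the table, 1 tested, lower in ChryM than in Ctrl) summed to 15.9 to 26.6 CPM in ChryM, 33.3 to 37.5 CPM in Model and 41.3 to 60.7 CPM in Ctrl. Those of oligodendrocyte precursors (5 genes, 4 tested, 3 lower in Model and 1 lower in ChryM than in Ctrl) summed to 176 to 195 CPM in ChryM, 158 to 167 CPM in Model and 238 to 257.6 CPM in Ctrl, while ependymal markers, with no call, summed to 4.90 to 19.6 CPM in ChryM, 9.06 to 13.6 CPM in Model and 8.67 to 20.6 CPM in Ctrl. Markers of neurons summed to 2464 to 2556 CPM in ChryM, 2869 to 3094 CPM in Model and 2663 to 3069 CPM in Ctrl, those of astrocytes to 964 to 999 CPM in ChryM, 1015 to 1096 CPM in Model and 1140 to 1354 CPM in Ctrl, and those of microglia to 107 to 128 CPM in ChryM, 158 to 180.2 CPM in Model and 159 to 186 CPM in Ctrl. Of 6 neuron markers tested, 4 were lower in ChryM than in Model (median log2 fold change -0.34). Against Ctrl, 1 was higher and 3 lower in ChryM, and 1 was higher and 1 lower in Model. Of 7 astrocyte markers tested, 4 were lower in ChryM than in Ctrl (median -0.41), 2 in Model than in Ctrl and 1 in ChryM than in Model. Of 5 microglial markers tested, 1 was lower in ChryM than in Model and 1 in ChryM than in Ctrl. The part of these lists in the results below was not tested, and in whole tissue, fewer cells of a type and less RNA per cell cannot be told apart.

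Gpx4 and Prdx5 dominated the set. Per gene length, Gpx4, a peroxidase of membrane lipid hydroperoxides, had the highest level with a mean of 257 FPKM (counts per kilobase of gene length and per 1000000 counts) over the 9 libraries. Prdx5, a peroxiredoxin of mitochondria, peroxisomes and cytosol, followed at 224 FPKM. The next levels were lower by a wide margin: Prdx2, a cytosolic peroxiredoxin abundant in neurons and erythrocytes, averaged 62.8 FPKM, Gstm7 45.7 FPKM, the cytosolic dismutase Sod1 44.2 FPKM and Gstp1 41.6 FPKM. Thioredoxin (Txn1) averaged 33.5 FPKM, the constitutive heme oxygenase Hmox2 26.9 FPKM, Gsta1 22.4 FPKM, the cytosolic peroxidase Gpx1 21.6 FPKM, Prdx1 19.5 FPKM and the mitochondrial dismutase Sod2 18.0 FPKM. Keap1 averaged 14.9 FPKM, whereas catalase (Cat) was at 5.87 FPKM and glutathione reductase (Gsr) at 4.17 FPKM.

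**Figure D1:**
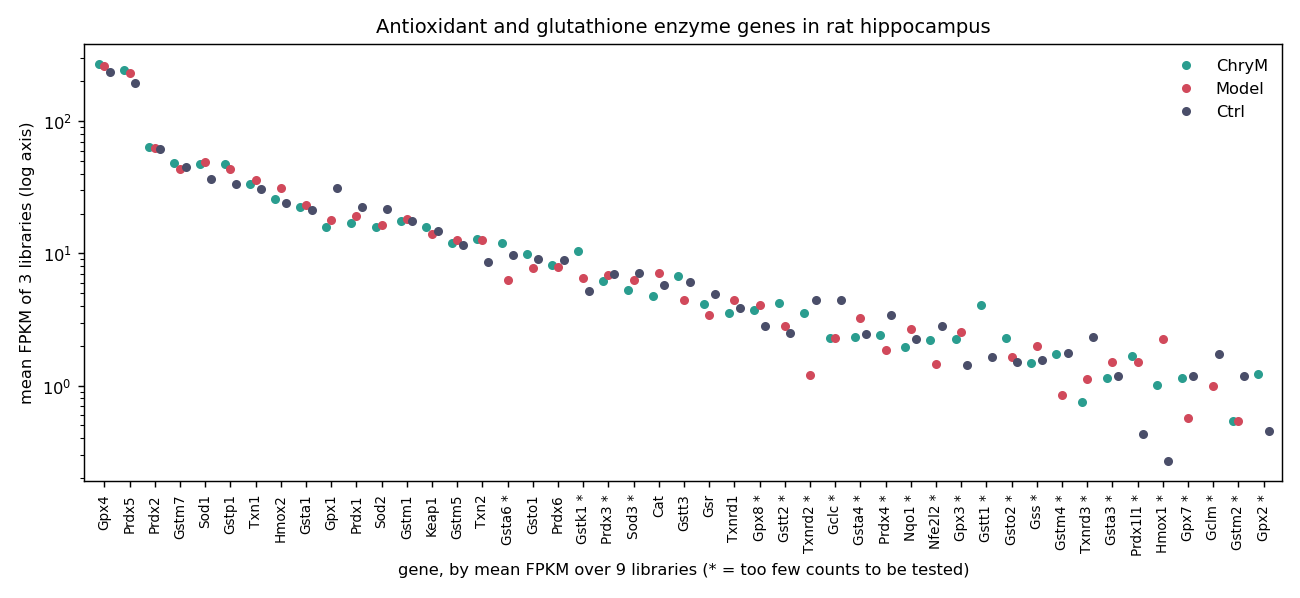
Mean FPKM of 3 libraries (log axis) for each of the 47 members with a count, in ChryM, Model and Ctrl, ordered by the mean over 9 libraries; an asterisk marks members with too few counts to be tested, and group means of 0 are not drawn. Gpx4 and Prdx5 stand above 190 FPKM in each group, and the means of the 3 groups lie farther apart among the members with few counts on the right.

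As a share of all counts, the 54 genes took 0.200%, 0.217% and 0.209% of the ChryM libraries, 0.199%, 0.205% and 0.200% of the Model libraries, and 0.188%, 0.187% and 0.184% of the Ctrl libraries. All 6 ChryM and Model libraries lay above the 3 Ctrl libraries. Prdx5 alone held 40.4% of the members' counts and Gpx4 14.8%. Summed over the set, the level was 2089 ± 84.3 CPM in ChryM, 2015 ± 33.0 CPM in Model and 1866 ± 21.3 CPM in Ctrl. Without Prdx5 and Gpx4 the sums were 899.7 ± 47.0 CPM in ChryM, 884 ± 42.7 CPM in Model and 892 ± 31.7 CPM in Ctrl, which overlap. As CPM of the library total, the summed levels outside those 2 genes thus differed by less than the spread between libraries. The member tests instead scale by the trimmed mean of M-values. Using library totals in its place moved the median gene by -0.12 log2 units in Model against Ctrl and by -0.06 in ChryM against Ctrl. The overlap of these sums therefore holds for library totals only, and it was not tested on the other scale.

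Model against Ctrl asks how the diabetes and stress protocol goes with the transcripts of these enzymes. The peroxiredoxin gene Prdx5 and the superoxide dismutase gene Sod1 were higher in Model, and no member was called lower. The 2 calls among 22 tested members (9.09%) compare with 12.4% of all 7073 tested genes called, 7.04% higher and 5.39% lower, so the share of members called was not above that of all genes. A call is a p under 0.05 in edgeR's quasi-likelihood test after Benjamini-Hochberg adjustment over the 7073 genes. At an unadjusted p under 0.05 there were 7 members, against 23.5% of all genes, and in 6 members the 3 Model and 3 Ctrl libraries did not overlap, against 26.1% of all genes. The median log2 fold change of the members was 0.17, and that of all tested genes was -0.02.

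ChryM against Model asks how chrysophanol goes with the same transcripts. No member was called in either direction, and none had an unadjusted p under 0.05 or groups that did not overlap. Among all genes 8.27% were called, 3.86% higher and 4.41% lower, while 19.3% had an unadjusted p under 0.05 and 23.6% did not overlap. The lowest p of a member was 0.0557 (adjusted p = 0.277 in edgeR's quasi-likelihood test), for Hmox2. DESeq2, limma-voom and each other alternative tried also called 0 members. Log2 fold changes of the 22 members lay between -0.58 and 0.53 with a median of -0.06, and 19 of the 22 intervals at 95% excluded a change of 2-fold either way, the exceptions being Cat, Gstt3 and Txnrd1.

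ChryM against Ctrl combines the protocol with the compound if the ChryM rats were model rats, as the series title implies, and it shares its Ctrl libraries with Model against Ctrl. Prdx5, Sod1 and Gpx4 were higher in ChryM and Gpx1 was lower. These 4 calls among 22 members (18.2%) stand beside 18.8% of all genes called, 9.83% higher and 8.96% lower. An unadjusted p under 0.05 was found for 7 members (29.6% of all genes), and 6 members did not overlap between ChryM and Ctrl (31.7% of all genes). The members' median log2 fold change was 0.15, against -0.01 for all genes.

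**Figure D2:**
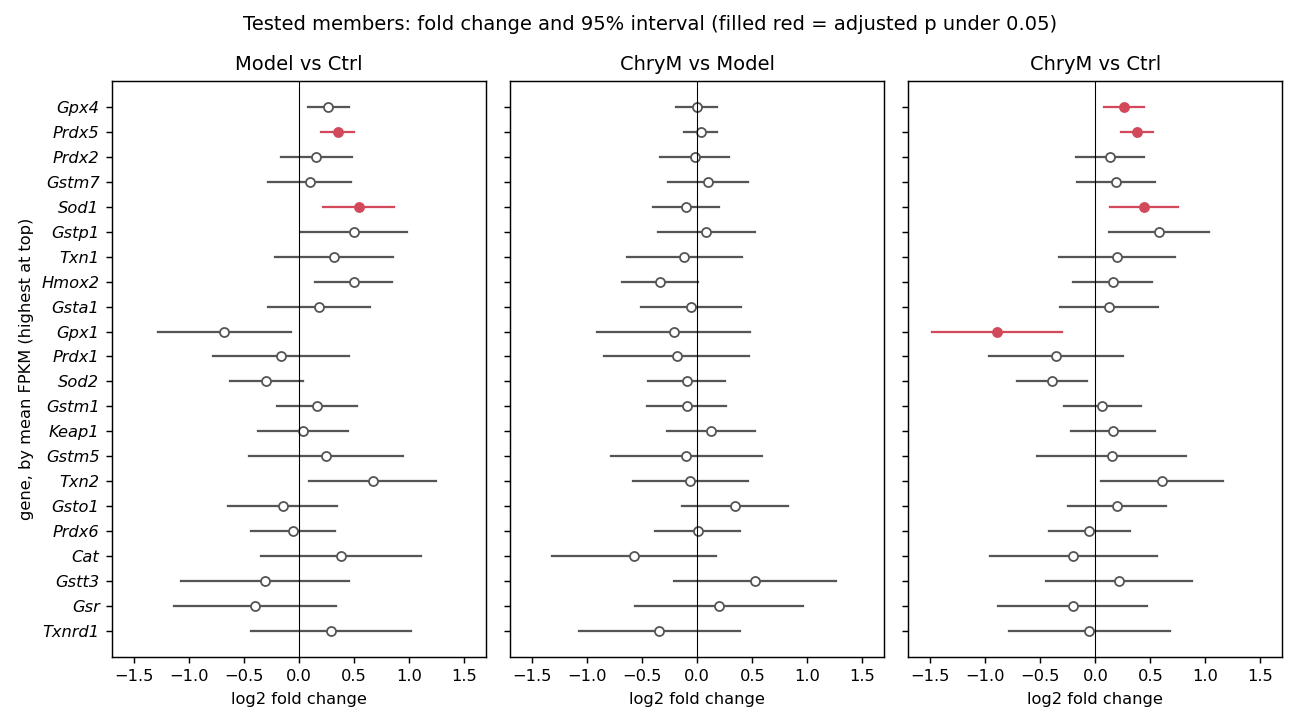
Log2 fold change (points, horizontal axis) and its 95% interval (lines) of the 22 tested members in each comparison, ordered by mean FPKM from top to bottom; filled red points have an adjusted p under 0.05. Red points number 2 in Model vs Ctrl, 0 in ChryM vs Model and 4 in ChryM vs Ctrl, and intervals widen towards the members with few counts at the bottom.

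Among the peroxiredoxins, Prdx5 (ENSRNOG00000021125) carried the clearest difference. Its level in libraries 1 to 3 was 854, 895 and 979.9 CPM in ChryM, 846, 936 and 889.5 CPM in Model and 702, 661 and 734 CPM in Ctrl. Every ChryM and Model library was above every Ctrl library, while ChryM and Model overlapped. Prdx5 was 1.28-fold higher in Model than in Ctrl (95% interval 1.15 to 1.42; log2 fold change 0.35 ± 0.08 SE, adjusted p = 0.000281 in edgeR's quasi-likelihood test). It was 1.30-fold higher in ChryM than in Ctrl (1.17 to 1.44; 0.38 ± 0.08, adjusted p = 2.86e-05, same edgeR test). Between ChryM and Model the ratio was 1.02 with an interval of 0.921 to 1.13. Both calls held whichever library was left out. In RefSeq, Prdx5 overlaps Trmt112, a methyltransferase cofactor gene on the opposite strand; the libraries keep strand, but whether the counting used it is not given in the sources used here, so reads of Trmt112 in the Prdx5 count cannot be told apart.

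The sequence around the Prdx5 transcript start, and the one before the Sod1 start, are shown because these members were higher together in Model and in ChryM. Both are from RefSeq's GRCr8 promoter table, 5′ to 3′ on the gene's strand, and capitals mark the core of the antioxidant response element, TGACNNNGC read on either strand, to which NRF2 binds with small MAF proteins. Prdx5 (chr1:213532020-213532277, minus strand, 250 bases before the start and 8 after) holds 1 match at its right end. That match begins at base -1 and otherwise lies after the start, and the Prdx5 stretch runs past the start to take it in. Sod1 (chr11:42942573-42942822, plus strand, 250 bases before the start) holds none. In the 250 bases before the start, neither gene holds a complete match.
Prdx5: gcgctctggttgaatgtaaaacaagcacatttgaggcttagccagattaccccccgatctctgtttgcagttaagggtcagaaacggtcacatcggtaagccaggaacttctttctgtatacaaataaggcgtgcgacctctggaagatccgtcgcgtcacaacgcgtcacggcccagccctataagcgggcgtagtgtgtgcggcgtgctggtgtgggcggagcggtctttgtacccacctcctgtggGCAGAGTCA
Sod1: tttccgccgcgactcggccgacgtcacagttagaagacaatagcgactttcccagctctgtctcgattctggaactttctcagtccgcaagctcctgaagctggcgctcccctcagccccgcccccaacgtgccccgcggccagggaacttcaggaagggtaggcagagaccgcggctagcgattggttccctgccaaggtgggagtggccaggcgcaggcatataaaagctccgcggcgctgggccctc

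No other peroxiredoxin was called. Prdx2 averaged 82.9 ± 12.1 CPM in ChryM, 84.2 ± 9.31 CPM in Model and 76.3 ± 11.4 CPM in Ctrl. Prdx1, the cytosolic peroxiredoxin that NRF2 is known to regulate, averaged 16.8 ± 1.77 CPM in ChryM, 19.7 ± 8.37 CPM in Model and 21.4 ± 6.28 CPM in Ctrl. Prdx6, the enzyme that also acts as a phospholipase, averaged 53.0 ± 1.61 CPM in ChryM, 53.2 ± 3.44 CPM in Model and 55.1 ± 10.04 CPM in Ctrl. The mitochondrial Prdx3, with 23 counts summed over ChryM, 22 over Model and 25 over Ctrl, the secretory-pathway Prdx4, with 11, 7 and 15 counts in the same groups, and Prdx1l1, with 4, 3 and 1, had too few counts.

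Of the superoxide dismutases, Sod1 alone was called. This cytosolic copper-zinc enzyme (ENSRNOG00000002115) had 87.0, 95.6 and 84.4 CPM in ChryM, 109, 88.8 and 89.5 CPM in Model and 56.0, 78.4 and 62.2 CPM in Ctrl. No Ctrl library reached the lowest ChryM or Model library. Sod1 was 1.45-fold higher in Model than in Ctrl (95% interval 1.16 to 1.82; log2 fold change 0.54 ± 0.16, adjusted p = 0.0145 in edgeR's quasi-likelihood test). In ChryM it was 1.36-fold higher than in Ctrl (1.09 to 1.68; 0.44 ± 0.16, adjusted p = 0.0358, same edgeR test), and ChryM and Model overlapped, with a ratio of 0.934 (0.759 to 1.15). The edgeR call in Model against Ctrl was lost without Model 1 (adjusted p = 0.130) or without Ctrl 1 (0.132), with library totals in place of scaling factors (0.0798), and in limma on log2(FPKM + 1) and log2(FPKM + 0.1) (0.0861 and 0.0902). The call in ChryM against Ctrl was lost in edgeR without ChryM 1, ChryM 2, ChryM 3, Ctrl 1 or Ctrl 3, at adjusted p of 0.0578 to 0.216, with library totals (0.0909) and without a count filter (0.0533), as well as in DESeq2 (adjusted p = 0.162) and on both FPKM scales (0.103 and 0.106).

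Sod2, the manganese enzyme of the mitochondrial matrix (ENSRNOG00000019048), lay at 63.0, 64.1 and 65.0 CPM in ChryM, 61.9, 61.5 and 79.9 CPM in Model and 75.5, 101 and 74.9 CPM in Ctrl. All 3 ChryM libraries were below all Ctrl libraries, and Model overlapped with Ctrl through 1 library. The ratio of ChryM to Ctrl was 0.760 (0.609 to 0.948), which did not pass (log2 fold change -0.40 ± 0.16, adjusted p = 0.0731 in edgeR's quasi-likelihood test). With library totals in place of scaling factors it passed at an adjusted p of 0.0350. The secreted dismutase Sod3 was just under the count limit, with 26 counts summed over ChryM, 27 over Model and 34 over Ctrl.

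**Figure D3:**
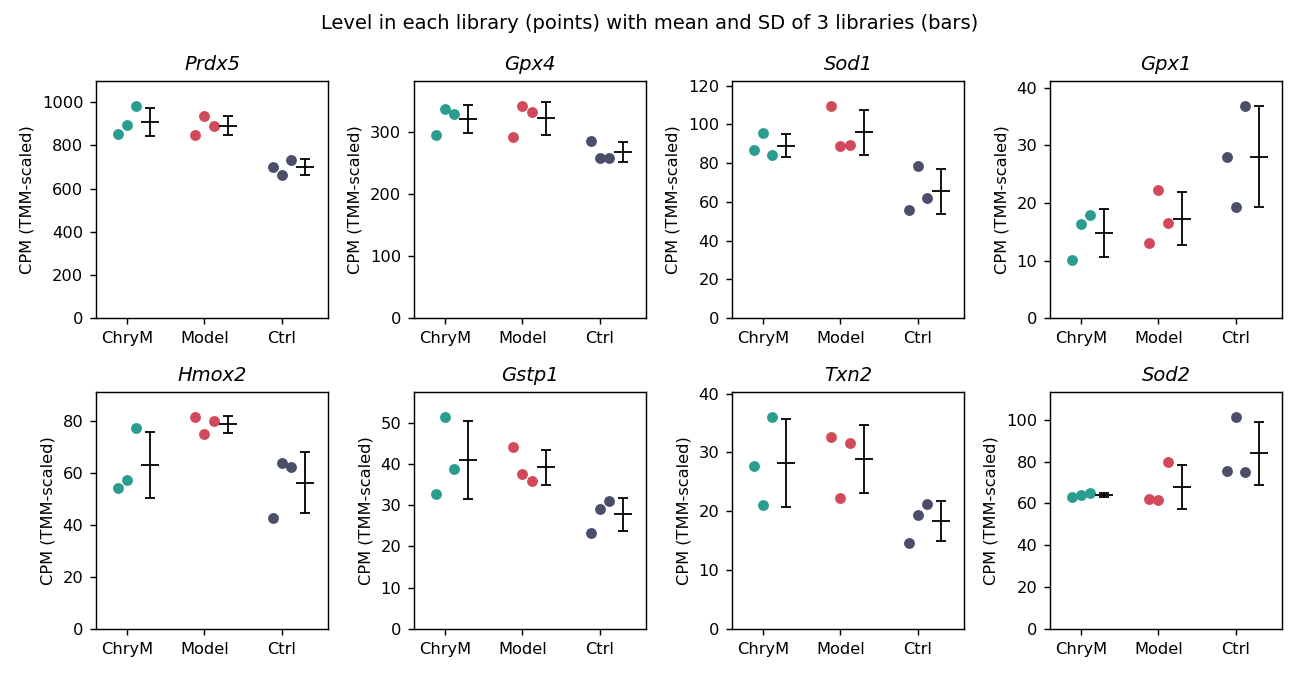
Level in each library (points, TMM-scaled CPM, vertical axis from 0) with mean and SD of 3 libraries (bars) in ChryM, Model and Ctrl, for the 8 members with an unadjusted p under 0.05 in at least 1 comparison. Prdx5 and Sod1 lie higher in all ChryM and Model libraries than in Ctrl, and Gpx1 lies lower in all ChryM libraries than in Ctrl.

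Of the glutathione peroxidases, Gpx4 rose and Gpx1 fell in ChryM relative to Ctrl. Gpx4 (ENSRNOG00000013604) had 295, 338 and 329 CPM in ChryM, 292, 342 and 333 CPM in Model and 286, 259.3 and 258.7 CPM in Ctrl. The lowest ChryM and Model libraries were only slightly above Ctrl 1. Gpx4 was 1.20-fold higher in ChryM than in Ctrl (95% interval 1.05 to 1.36; log2 fold change 0.26 ± 0.09, adjusted p = 0.0376 in edgeR's quasi-likelihood test). In Model it was 1.20 times the Ctrl level (1.05 to 1.37), with an adjusted p of 0.0535 in the same edgeR test, and the call in 1 comparison and not in the other does not show that ChryM and Model differ; their ratio was 0.996 (0.876 to 1.13). The ChryM call was lost in edgeR without ChryM 2, ChryM 3, Model 1, Ctrl 2 or Ctrl 3 (adjusted p of 0.0512 to 0.167), with library totals (0.128), without a count filter (0.0542) and in a fit of only the 2 groups (0.0592), as well as in DESeq2 (0.106) and on both FPKM scales (0.149 and 0.154).

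Gpx1 (ENSRNOG00000048812), the selenium-dependent peroxidase of the cytosol, had 8, 14 and 13 counts in ChryM, 8, 13 and 12 in Model and 23, 16 and 26 in Ctrl. In CPM these were 10.1, 16.3 and 18.0 in ChryM, 13.0, 22.2 and 16.5 in Model and 28.0, 19.3 and 36.8 in Ctrl. ChryM lay below all Ctrl libraries, whereas 1 Model library was above the lowest Ctrl library. The level in ChryM was 0.537 times that in Ctrl (95% interval 0.356 to 0.811; log2 fold change -0.90 ± 0.30, adjusted p = 0.0227 in edgeR's quasi-likelihood test), and the level in Model was 0.624 times that in Ctrl (0.410 to 0.948), which did not pass (adjusted p = 0.144). Between ChryM and Model the ratio was 0.862 (0.532 to 1.40). In edgeR the ChryM call was lost without ChryM 1 (adjusted p = 0.159), Ctrl 1 (0.0654) or Ctrl 3 (0.182), and without a count filter (0.0605). Gpx1 is also an erythrocyte enzyme, and the globin transcripts differed in the same direction. Hba-a1 averaged 74.3 ± 5.87 CPM in ChryM, 56.0 ± 6.42 CPM in Model and 246 ± 1.29 CPM in Ctrl. Prdx2, abundant in neurons and erythrocytes, did not differ in that direction. It averaged 82.9 ± 12.1 CPM in ChryM, 84.2 ± 9.31 CPM in Model and 76.3 ± 11.4 CPM in Ctrl. The part of erythrocyte transcripts in the Gpx1 result was not tested. The other 4 peroxidases with counts had few: the plasma peroxidase Gpx3 had 15 counts in ChryM, 14 in Model and 9 in Ctrl, Gpx8 had 11, 10 and 8, Gpx7 had 5, 2 and 5, and Gpx2 had 3, 0 and 1 in that order of groups.

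The 21 glutathione S-transferase genes summed to 315 ± 32.7 CPM in ChryM, 279 ± 27.4 CPM in Model and 279.5 ± 4.49 CPM in Ctrl. Of these, 7 were tested and none was called in any comparison. Gstp1 (ENSRNOG00000018237), the pi-class enzyme of glia, had 32.8, 51.3 and 38.8 CPM in ChryM, 44.0, 37.6 and 35.8 CPM in Model and 23.1, 28.9 and 31.1 CPM in Ctrl. Both ChryM and Model lay above all Ctrl libraries, by narrow gaps. Its ratio to Ctrl was 1.49 in ChryM (95% interval 1.09 to 2.05, adjusted p = 0.0644) and 1.41 in Model (1.01 to 1.97, adjusted p = 0.1995 in edgeR's quasi-likelihood test), and ChryM over Model gave 1.06 (0.781 to 1.44). The mu-class Gstm1 averaged 60.2 ± 1.87 CPM in ChryM, 64.7 ± 7.60 CPM in Model and 57.0 ± 12.8 CPM in Ctrl, and Gstm7 64.4 ± 10.2 CPM in ChryM, 60.4 ± 13.1 CPM in Model and 57.4 ± 10.4 CPM in Ctrl. The alpha-class Gsta1 averaged 37.3 ± 6.30 CPM in ChryM, 40.0 ± 14.3 CPM in Model and 34.3 ± 4.11 CPM in Ctrl, and the omega-class Gsto1 38.2 ± 3.51 CPM in ChryM, 30.9 ± 10.4 CPM in Model and 33.4 ± 7.15 CPM in Ctrl. Gstm5 and the theta-class Gstt3 had group means between 11.7 and 17.4 CPM. The 9 transferases with counts that were not tested held from 14 (Gstt1) to 69 (Gsta6) counts in all. Alpha and mu transferases are closely related paralogs, and how reads shared between them were counted is not given in the sources used here, so the split between these members is uncertain.

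Thioredoxin 2 (Txn2, ENSRNOG00000005614), the mitochondrial thioredoxin, had 27.7, 21.0 and 36.0 CPM in ChryM, 32.6, 22.2 and 31.7 CPM in Model and 14.6, 19.3 and 21.2 CPM in Ctrl. Model lay above Ctrl in all libraries and ChryM overlapped with Ctrl. The ratio to Ctrl was 1.59 in Model (95% interval 1.06 to 2.37, adjusted p = 0.134) and 1.52 in ChryM (1.03 to 2.24, adjusted p = 0.130), neither of which passed edgeR's quasi-likelihood test. The ratio of ChryM to Model was 0.958 (0.665 to 1.38). Cytosolic thioredoxin (Txn1) averaged 27.9 ± 9.35 CPM in ChryM, 30.9 ± 5.89 CPM in Model and 24.5 ± 8.98 CPM in Ctrl, and its reductase Txnrd1 12.9 ± 5.15 CPM in ChryM, 16.7 ± 1.43 CPM in Model and 13.6 ± 4.93 CPM in Ctrl. Txnrd3, a reductase best known from mouse testis, had 5 counts in ChryM, 6 in Model and 15 in Ctrl.

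Genes that make and recycle glutathione had few counts, and only Gsr was tested. Gsr, which returns oxidized glutathione to its reduced form, averaged 14.3 ± 3.98 CPM in ChryM, 12.4 ± 1.86 CPM in Model and 16.4 ± 3.92 CPM in Ctrl, with no call. Gclc, the catalytic subunit of the rate-limiting enzyme of glutathione synthesis, had 3, 7 and 7 counts in ChryM, 5, 2 and 8 in Model and 8, 15 and 9 in Ctrl. Its ratio to Ctrl was 0.528 in ChryM (exact 95% counting interval 0.275 to 0.979) and 0.574 in Model (0.289 to 1.09). Gclm, the modifier subunit of the same enzyme, had 0 counts in every ChryM library, 1 in each Model library and 3, 1 and 2 in Ctrl. With the ChryM sum set to a floor of 3 counts it was 2.01-fold lower in ChryM than in Ctrl. The exact 95% counting interval of that ratio is wider and reaches up to 0.844. Glutathione synthetase (Gss) had 8 counts in ChryM, 9 in Model and 8 in Ctrl. Together the 4 genes summed to 24.1 ± 0.891 CPM in ChryM, 24.4 ± 3.94 CPM in Model and 36.2 ± 6.15 CPM in Ctrl, so that no ChryM or Model library reached the lowest Ctrl library, at 32.4 CPM. The sum was not tested, Gsr overlapped between the groups, and Gss had similar counts in each. Libraries also did not overlap in 26.1% of all tested genes in Model against Ctrl and 31.7% in ChryM against Ctrl. Counting intervals cover counting error only, and a ratio at the floor leaves out the counting error of the other group.

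Of the regulators Keap1 and Nfe2l2 and the NRF2 targets Nqo1 and Hmox1, only Keap1 was tested, and it was not called. Nfe2l2, Nqo1 and Hmox1 had too few counts to be tested. Keap1 averaged 52.8 ± 13.1 CPM in ChryM, 48.1 ± 7.81 CPM in Model and 47.1 ± 4.54 CPM in Ctrl. Nfe2l2 had 4, 7 and 4 counts in ChryM, 3, 3 and 2 in Model and 7, 6 and 5 in Ctrl, a ratio of Model to Ctrl of 0.544 (0.205 to 1.32). Nqo1, a quinone reductase, had 8 counts in ChryM, 9 in Model and 9 in Ctrl. The inducible heme oxygenase Hmox1 had 1, 3 and 0 counts in ChryM, 2, 3 and 2 in Model and 0, 1 and 0 in Ctrl, and the ratio of Model to Ctrl, 8.57, had a counting interval of 1.10 to 386.

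Hmox2 (ENSRNOG00000003773), the heme oxygenase that neurons express constitutively, had 54.2, 57.2 and 77.5 CPM in ChryM, 81.5, 75.2 and 79.9 CPM in Model and 42.6, 63.9 and 62.2 CPM in Ctrl. Model lay above all Ctrl libraries, and ChryM overlapped with both. Its ratio was 1.41 in Model against Ctrl (95% interval 1.10 to 1.80), which missed the threshold in edgeR's quasi-likelihood test (adjusted p = 0.0525) and passed with limma-voom (adjusted p = 0.0428). In edgeR it also passed without ChryM 1, Ctrl 2 or Ctrl 3 (adjusted p of 0.0405 to 0.0483). The ratio was 0.791 in ChryM against Model (0.623 to 1.00) and 1.11 in ChryM against Ctrl (0.871 to 1.42). Catalase, at 7, 13 and 8 counts in ChryM, 10, 16 and 8 in Model and 16, 7 and 9 in Ctrl, was the tested member with the fewest counts, 94 in all, while Sod3, with 87, was the untested member with the most.

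Without a filter on low counts, edgeR called 0 of the 25 members that have counts but were not tested, in each of the 3 comparisons. At an unadjusted p under 0.05 there were 2 of them in Model against Ctrl, 2 in ChryM against Model and 4 in ChryM against Ctrl, beside 12.9%, 10.5% and 16.2% of the 17492 genes in that fit. Those 17492 genes include the 7073 tested genes, which have more counts. The shares are therefore not of like genes, and no conclusion is drawn from them. The lowest adjusted p, 0.0749, belonged to Gstt1, a theta-class transferase, in ChryM against Model. Gstt1 and Txnrd2 were picked out after their values were seen. Gstt1 had 3, 1 and 6 counts in ChryM, none in Model and 1, 2 and 1 in Ctrl. With the Model sum set to a floor of 3 counts it was 2.70-fold higher in ChryM than in Model (lower exact counting limit 1.82). Txnrd2, the mitochondrial thioredoxin reductase, had 8, 4 and 5 counts in ChryM, 2, 1 and 2 in Model and 9, 8 and 4 in Ctrl.

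The antioxidant response element core TGACNNNGC was searched on both strands of the 300 bases around each transcript start (250 before, 50 after) in the RefSeq table, which holds 47 of the 54 members. It was present in 14 members (29.8%), against 3342 of 27457 promoters in the table (12.2%). Of the tested members, 8 of 20 held it; these were Gsta1, Gstm5, Gstm7, Gstp1, Hmox2, Prdx1, Prdx5 and Sod2. Sod1, Gpx1 and Gpx4 had no match in this window. Paralogs share sequence, the motif has letters in common with the site of AP-1 factors, and a match is a description, not a binding site. The matches of members described above are shown with 10 bases on either side, on the gene's strand, capitals marking the match; they lie at chr1:213532010-213532038 (minus strand) for Prdx5, chr5:135383761-135383789 (plus strand) for Prdx1, chr1:50050185-50050213 (minus strand) for Sod2, chr1:210769748-210769776 (minus strand) for Gstp1, chr2:198260315-198260343 (minus strand) for Gstm7 and chr10:11337689-11337717 (minus strand) for Hmox2 in GRCr8.
Prdx5: cctcctgtggGCAGAGTCAtctgcgggtg
Prdx1: cagggaaagcGCTGAGTCAtaccccgccg
Sod2: ggcgctgccgGCAGGGTCAgcgcctagct
Gstp1: tccactgtgtTGACTCAGCatccggggcg
Gstm7: gaggctagatTGACACAGCctgtccgttc
Hmox2: gtcttggaagGCAGTGTCAgcttggccag

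A wider list of 97 redox genes, chosen like the members with earlier results of these data known, had 89 genes in the table and 49 tested. In edgeR's quasi-likelihood test 4 of them were higher and 3 lower in Model than in Ctrl, 3 higher and 0 lower in ChryM than in Model, and 7 higher and 3 lower in ChryM than in Ctrl. The share of the list called was 14.3% in Model against Ctrl (12.4% of all genes), 6.12% in ChryM against Model (8.27% of all genes) and 20.4% in ChryM against Ctrl (18.8% of all genes), close to the background each time. The list's median log2 fold changes were -0.13, 0.05 and 0.01 in these comparisons, beside -0.02, 0.00146 and -0.01 for all genes. Several of those called encode selenoproteins, which like GPX1 and GPX4 contain selenocysteine. Selenow, whose product is a small thioredoxin-like selenoprotein of brain and muscle, was at 5766 ± 284 CPM in ChryM, 5245 ± 27.5 CPM in Model and 4355 ± 218 CPM in Ctrl. It was 1.20-fold higher in Model (adjusted p = 0.00255) and 1.32-fold higher in ChryM (adjusted p = 6.18e-07) than in Ctrl in edgeR. Selenot, of the endoplasmic reticulum, was lower, at 82.3 ± 14.0 CPM in ChryM, 79.1 ± 4.92 CPM in Model and 131 ± 3.58 CPM in Ctrl, a ratio to Ctrl of 0.630 in ChryM and 0.603 in Model (edgeR adjusted p = 7.05e-05 and 5.70e-05). Selenop, the secreted selenium carrier, was lower in Model than in both other groups, with 80.9 ± 4.19 CPM in ChryM, 55.1 ± 7.07 CPM in Model and 87.4 ± 9.04 CPM in Ctrl. Its ratio was 0.634 in Model against Ctrl (edgeR adjusted p = 0.00380) and 1.46 in ChryM against Model (edgeR adjusted p = 0.0345). The call in ChryM against Model was lost on leaving out any of ChryM 1, ChryM 2, ChryM 3, Model 1 and Model 2, without a count filter and in DESeq2, and Selenop overlaps Ccdc152 on the opposite strand.

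Mt3, the brain metallothionein, which binds zinc and copper and scavenges radicals, averaged 460.2 ± 29.4 CPM in ChryM, 379 ± 22.1 CPM in Model and 309 ± 10.6 CPM in Ctrl. It was 1.21-fold higher in ChryM than in Model (edgeR adjusted p = 0.0251), 1.23-fold higher in Model than in Ctrl (adjusted p = 0.0195) and 1.49-fold higher in ChryM than in Ctrl (adjusted p = 3.10e-08). The first of these calls was lost without ChryM 1, ChryM 2, Model 1 or Model 2, without a count filter and in DESeq2, and the second without Model 2, Model 3 or Ctrl 1, with library totals and on both FPKM scales. Fth1, the ferritin heavy chain and a known NRF2 target, averaged 1665 ± 116 CPM in ChryM, 957 ± 47.4 CPM in Model and 1049 ± 50.4 CPM in Ctrl, and was 1.74-fold higher in ChryM than in Model (edgeR adjusted p = 1.83e-19) and 1.59-fold higher in ChryM than in Ctrl (edgeR adjusted p = 5.44e-15). Oligodendrocyte markers, 7 of 9 of which were higher in ChryM than in Model and all 9 of which were lower in Model than in Ctrl, summed to 14995 to 16409 CPM in ChryM, 8459 to 9364 CPM in Model and 15459 to 16551 CPM in Ctrl. In ChryM against Ctrl 1 of the 9 was higher and 5 were lower, with a median log2 fold change of -0.35; the part of these markers in the Fth1 and Selenop results was not tested. The glutamate and cysteine transporter gene Slc1a1 was 1.85-fold higher in ChryM than in Ctrl (edgeR adjusted p = 0.00149), at 47.9 ± 1.97 CPM in ChryM, 35.2 ± 5.88 CPM in Model and 26.0 ± 3.72 CPM in Ctrl, and it overlaps Spata6l on the opposite strand. The counts under Nox1 and Oplah, also called, overlap other coding genes and cannot be told apart from them here.

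**Figure D4:**
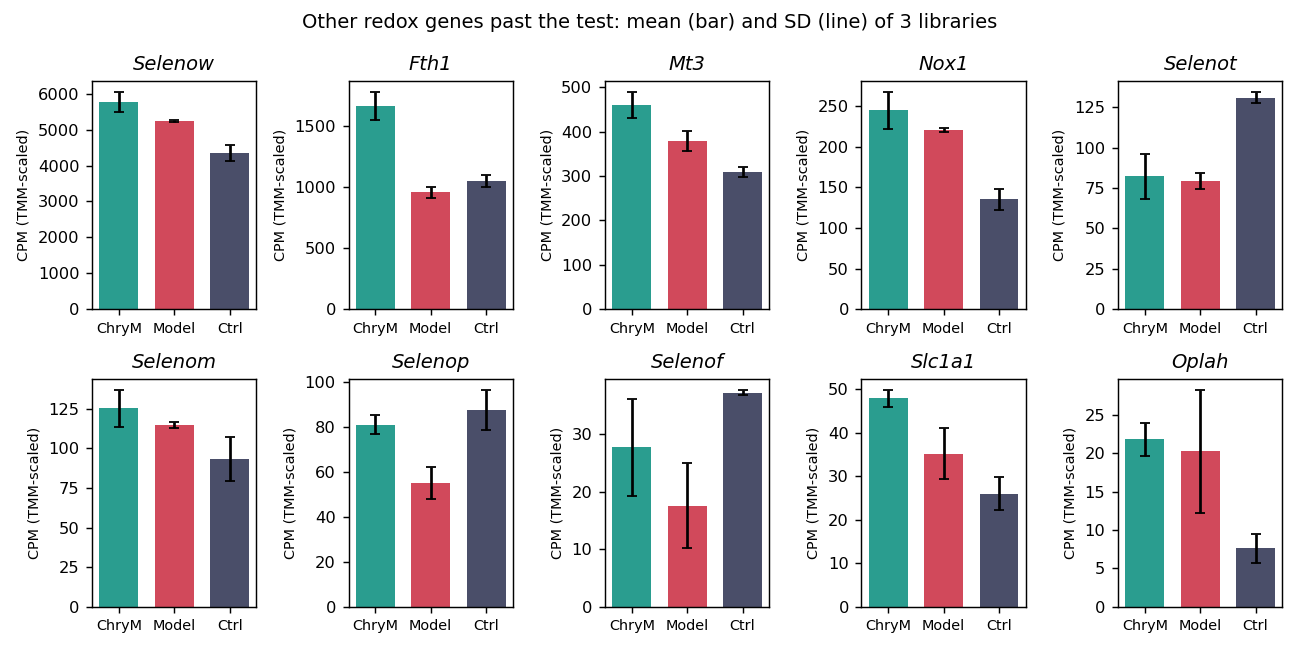
Mean (bars, TMM-scaled CPM, vertical axis from 0) and SD (lines) of 3 libraries in ChryM, Model and Ctrl for the 10 genes of the wider redox list with the smallest p among those called in any comparison. Selenow, Mt3, Nox1, Oplah, Selenom and Slc1a1 have means that step down in the order ChryM, Model, Ctrl. Fth1, Selenof, Selenop and Selenot have their lowest mean in Model, and Selenof, Selenop and Selenot their highest in Ctrl.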

How the data were processed

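Counts per gene were deposited by the authors as whole numbers, with FPKM in a second table; HISAT2 and DESeq2 are named without versions, per the submitters' processing notes. How reads were counted, with which strand setting, build and annotation, is not given in the sources used here. In 100.0% of values FPKM, as deposited, was the count divided by gene length and by library total (relative tolerance 1e-09); it was used here to compare genes and in alternatives. No 2 libraries held identical values.

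Genes kept by filterByExpr (7073 of 30562) were fitted once over 9 libraries with edgeR 4.0.16 in R 4.3.3 (TMM factors of 0.956 to 1.07, glmQLFit with robust spread, a coefficient per group, 6 residual degrees of freedom) and tested two-sided with glmQLFTest at a Benjamini-Hochberg adjusted p under 0.05. The pipeline was tested on simulated data. The biological coefficient of variation was 5.50%. Of the test's SE and the counting error, the greater is printed, which matters for the Gpx1 call (0.301 against 0.302); intervals are the log2 fold change ± 1.96 SE, turned into ratios. Ratios of low counts have exact binomial intervals at 95%.

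Text names called members, the 12 with the highest mean FPKM, 10 regulators and glutathione or peroxide enzymes whatever their result, members beside the count filter, and up to 10 called genes of a wider redox list. Members and lists were chosen with earlier results of these data known. Overlaps, promoters and sequences come from RefSeq GRCr8, where all 54 members were found. Alternatives were RLE factors, library totals, DESeq2 1.42.0, limma 3.58.1 (voom, log2(FPKM + 1), log2(FPKM + 0.1)), other count filters, a fit of only 2 groups, a non-robust spread, a replicate block and leaving out each library. Some items are withheld and not reported here.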

Additional observations from a re-analysis of the deposited data

How the results depend on the processing

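In Model against Ctrl, 2 members were called, against 1 with library totals, 1 with DESeq2, 1 on log2(FPKM + 1), 0 on log2(FPKM + 0.1) and 1 to 4 on leaving out a library. In ChryM against Ctrl the count of 4 became 1 with DESeq2, 1 without a count filter, 2 on either FPKM scale, 3 with library totals (1 higher and 2 lower, as Sod1 and Gpx4 were lost and Sod2 was gained) and 1 to 4 on leaving out a library. DESeq2 was run on all genes and gave no adjusted p for Sod1 in Model against Ctrl or for Gpx1 in ChryM against Ctrl. ChryM against Model gave 0 members under each of 20 alternatives. Prdx5 in ChryM against Ctrl was called in all 20, and in Model against Ctrl it missed only on log2(FPKM + 0.1) (adjusted p = 0.0506). Over all genes, DESeq2 called 440 (Model against Ctrl), 262 (ChryM against Model) and 591 (ChryM against Ctrl), log2(FPKM + 1) 553, 352 and 793, and log2(FPKM + 0.1) 521, 351 and 772, where edgeR called 879, 585 and 1329; leaving out a library gave 615 to 886, 390 to 619 and 971 to 1349. With library totals the split of higher and lower genes was 276 and 655 in Model against Ctrl, with the median of all genes shifted by -0.12, 373 and 252 in ChryM against Model, and 520 and 819 in ChryM against Ctrl.

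Signs turned in differences that were not called. Among tested members the greatest of these was Cat in Model against Ctrl (0.38), which was -0.012 without Model 2; Cat in ChryM against Ctrl (-0.20) was 0.18 without Ctrl 1. In ChryM against Model, Gpx4 (-0.01) was 0.049 with library totals, 0.048 on both FPKM scales, 0.0026 without a count filter and -0.072 to 0.044 on leaving out a library, and Txn2 (-0.06) was 0.0098 and 0.010 on the FPKM scales and -0.26 to 0.12 on leaving out a library. Leaving out a library also moved ChryM against Model to between -0.13 and 0.22 for Gstp1, -0.030 and 0.065 for Prdx5 and -0.17 and 0.055 for Sod2, and ChryM against Ctrl to between -0.017 and 0.27 for Hmox2. Of 66 pairs of tested member and comparison, 27 turned sign under some alternative, and 0 of the 6 called pairs did. Among the 10 called genes of the wider redox list with the smallest p, 18 pairs of gene and comparison were called. Of these 18, 10 were called in every alternative and 0 turned sign. The list's other called genes, Oxr1 and Sephs2, are not in this count.

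Deviations of same-numbered libraries correlated at -0.0304 to 0.0421, and those of differently numbered libraries of different groups at -0.0425 to 0.0629. These values gave no sign of pairing by replicate number. With a median of 24 counts in the tested genes, counting error could hide a pairing, so they do not exclude it. With the replicate block, 2, 0 and 4 members were called in Model against Ctrl, ChryM against Model and ChryM against Ctrl, and 855, 586 and 1317 genes in all. Depth limits the rest: 25 members with counts were not tested, and half-widths of the tested members' 95% intervals had medians of 0.47, 0.45 and 0.44 on the log2 scale in the 3 comparisons. The cause of calls lost under an alternative was not tested.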
